A study of Mus musculus with 6 samples.

Results

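Smooth muscle and pericyte genes, which mark the cells that wrap blood vessels, were followed in WT and TG-PKR1 hearts. Of these 10 genes, among 28478 gene names on the array, 6 belong to the contractile programme of smooth muscle (Acta2, Cnn1, Myh11, Tagln, Myocd and Smtn) and 4 belong to pericytes (Rgs5, Cspg4, Pdgfrb and Notch3). Every non-control probe that carried 1 of these gene names on the array was taken, which gave 19 of 41174 probes. Of the 19 probes, 16 were among the 20000 with the highest median signal, and each of the 10 genes had at least 1 probe there. All tests below were made on those 20000 probes.

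The hearts came from 3 WT and 3 TG-PKR1 mice, all male and 12 weeks old, and each heart was hybridized to 1 single-dye Agilent array. TG-PKR1 mice overexpress the prokineticin receptor PKR1 under the cardiomyocyte-specific αMHC promoter, so the transgene is driven in cardiomyocytes and not by a mural cell promoter. The labels name no treatment. The comparison asks how the hearts of mice with a receptor added to cardiomyocytes differ from WT hearts in the RNA of other cells.

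Mural cells wrap the endothelial tube: smooth muscle cells surround arteries, arterioles and larger veins, and pericytes sit on capillaries and small venules. The coactivator myocardin binds serum response factor (SRF) and switches on the contractile genes through a promoter motif called the CArG box. Endothelial cells recruit pericytes with PDGF-B, which acts on Pdgfrb, and signal to mural cells through Jagged ligands and Notch3. These genes are not private to mural cells: cardiomyocytes also make myocardin, and activated fibroblasts make the actin of Acta2. Since RNA came from whole hearts, fewer cells of a type and less RNA per cell cannot be told apart.

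None of the 16 probes passed the test for a difference between TG-PKR1 and WT hearts. By limma with Benjamini-Hochberg adjustment over 20000 probes, 0 were lower and 0 higher at an adjusted p under 0.05, against 0.095% of all probes called lower and 0% called higher. The smallest adjusted p among them was 1.0. At an unadjusted p under 0.05 the counts were also 0 and 0, where 1.66% of all probes were lower and 0.715% higher. In 0 of the 16 did the hearts of the groups lie apart, whereas 2.73% of all probes lay apart with TG-PKR1 lower and 2.68% with TG-PKR1 higher. The group mean was lower in TG-PKR1 hearts for 7 of the 16 and higher for 9, and over all probes it was lower for 41.8% and higher for 58.2%. With 6 hearts the margins were wide: the fold estimated for Cnn1 had a 95% interval from 0.41 to 1.28, and that for 1 Rgs5 probe from 0.778 to 2.32.

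The arrays differed in brightness in ways that the genotypes do not explain. Between 19662 and 24944 probes stood well above background on an array. The 75th percentile of signal was 11.4 to 14.1 times background on WT replicate 1 and TG-PKR1 replicates 2 and 3, and 2.08 to 3.97 times background on the other arrays. The first 3 of these have a saturation value of 559351 to 569418 in the scanner headers and the others 65265 to 65266, and they are called high-saturation and low-saturation arrays here. The headers set the flag for an extended dynamic range on all 6 arrays, so the saturation value alone makes this split. WT replicate 2 and TG-PKR1 replicate 1 lay on the same slide. The Prokr1 probe, for the mouse gene of PKR1, was well above background on 0 of 6 arrays, so it gives no check of the transgene. All 16 probes of the mural genes were well above background on 6 of 6 arrays and saturated on 0.

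Myocd encodes myocardin and stands at the head of the contractile programme. Its level, as the mean of both probes on the normalized log2 scale, was 9.19, 8.50 and 8.12 in WT replicates 1 to 3 and 8.90, 8.83 and 8.80 in TG-PKR1 replicates 1 to 3. The TG-PKR1 hearts lay close together inside the range of the WT hearts (SD 0.05 against 0.54, n = 3 each), a contrast in spread that was not tested. The means differed by 0.24 in log2, TG-PKR1 minus WT (exact permutation p = 0.5, two-sided, n = 3 against 3), and by -0.0022 without WT replicate 3 and 0.53 without WT replicate 1. Both probes gave the same difference, 0.24 with an SE of 0.33 for A_51_P469942 and 0.24 with an SE of 0.21 for A_52_P557424. The smallest p that this exact test allows with 3 hearts against 3 is 0.1.

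Acta2 encodes smooth muscle α-actin, the actin of the contractile filament, and the differences at its probes had opposite signs. Probe A_51_P450957 (chromosome 19, 34314502 to 34317756, mm8, minus strand), the one nearest the 5′ end of the 3 tested, read 13.10, 12.76 and 12.67 in the WT hearts and 13.69, 12.76 and 13.39 in the TG-PKR1 hearts. TG-PKR1 replicates 1 and 3 were above every WT heart and replicate 2 was level with the middle WT heart, for a difference of 0.44 (SE 0.25, 95% interval -0.13 to 1.0). Probe A_52_P210078 (chromosome 19, 34307204 to 34307263), the one nearest the 3′ end of the 3, read 8.15, 9.29 and 8.94 in WT and 8.37, 8.71 and 8.33 in TG-PKR1, a difference of -0.33 (SE 0.28). The lowest reading of that probe and the highest were both in WT hearts.

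The remaining Acta2 probe of the 3, A_52_P420504 (chromosome 19, 34307567 to 34307626), was printed in 10 spots per array, of which 6 to 10 were kept. It read 12.44, 12.38 and 12.40 in WT and 12.75, 11.70 and 12.50 in TG-PKR1 hearts, and its difference was -0.09 (SE 0.25). The WT hearts were within a narrow band and TG-PKR1 replicate 2 was far below it: the highest of its spots, 11.92, lay under the lowest spot of any other heart, 12.08. As a mean of the 3 probes Acta2 differed by 0.01 (exact permutation p = 1, n = 3 against 3), and by -0.12 to 0.16 with 1 heart left out at a time. The difference at A_51_P450957 exceeded that at A_52_P210078 by 0.77, so the value for Acta2 depends on which probe is read.

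**Figure D1:**
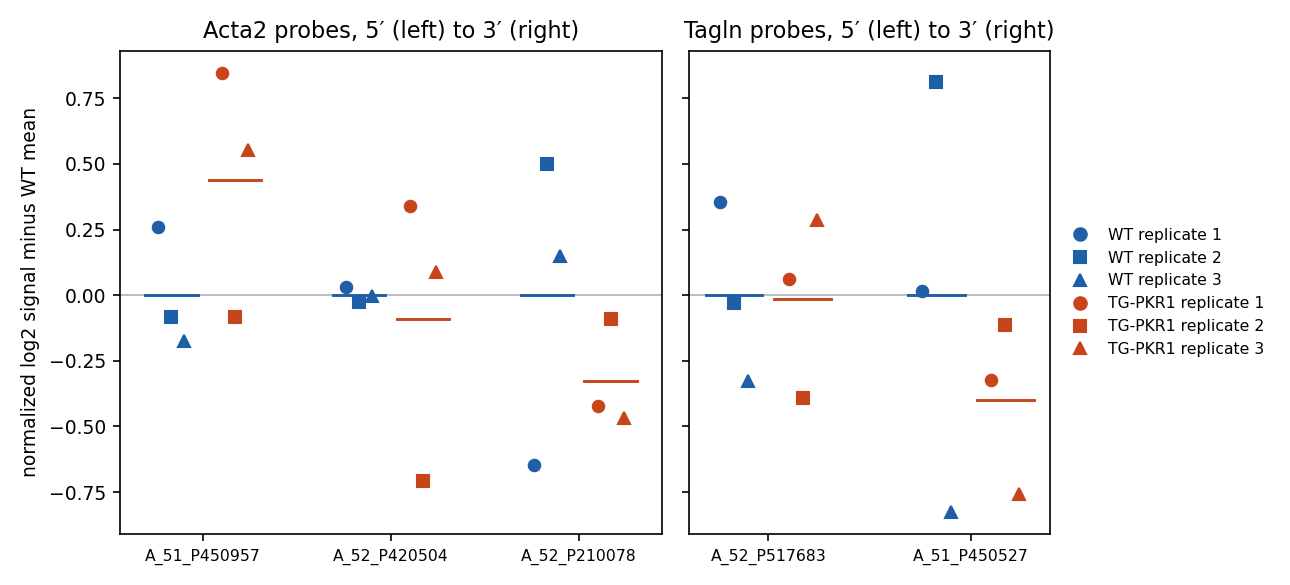
Normalized log2 signal of the 3 Acta2 and 2 Tagln probes among the 20000 in each heart, relative to the WT mean of that probe. Points are hearts, bars are group means (n = 3 each), and probes run from the 5′ to the 3′ end of the transcript. The TG-PKR1 mean lies 0.44 above the WT mean for the Acta2 probe drawn nearest the 5′ end and 0.33 below it for the one nearest the 3′ end, and the groups overlap for all 5 probes drawn.

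The other contractile proteins gave no common direction. Myh11 encodes smooth muscle myosin heavy chain, the motor that pulls on the actin filament. It read 9.95, 9.43 and 8.58 in WT hearts and 9.80, 9.0 and 9.74 in TG-PKR1 hearts (difference 0.19, SE 0.35). The WT hearts enclosed all TG-PKR1 hearts, and the difference was -0.18 without WT replicate 3 and 0.51 without WT replicate 1. Cnn1 encodes calponin, which binds actin and slows the myosin ATPase. It read 9.55, 11.03 and 9.70 in WT and 9.37, 9.76 and 9.76 in TG-PKR1, a difference of -0.46 (SE 0.36). That difference came with 1 WT heart that stood high: without WT replicate 2 it was 0.0027.

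Tagln encodes transgelin (SM22α), an actin-binding protein of smooth muscle. Probe A_51_P450527 read 12.15, 12.94 and 11.31 in WT and 11.81, 12.02 and 11.37 in TG-PKR1 hearts (difference -0.40, SE 0.37), and the TG-PKR1 hearts again lay inside the WT range. Probe A_52_P517683, 5′ of it on the minus strand of chromosome 9, differed by -0.01 (SE 0.23). The mean of both Tagln probes differed by -0.21 (exact permutation p = 0.6, n = 3 against 3). That difference was -0.01 without WT replicate 2 and -0.49 without WT replicate 3.

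Smtn encodes smoothelin, a cytoskeletal protein of contractile smooth muscle, and it came nearest to the threshold. It read 10.99, 10.55 and 10.61 in WT hearts and 11.19, 10.91 and 11.24 in TG-PKR1 hearts. TG-PKR1 replicates 1 and 3 were above every WT heart and replicate 2 was below WT replicate 1. The difference was 0.40 (SE 0.18, 95% interval -0.01 to 0.81), or 1.32-fold, with an unadjusted p of 0.054 by limma, an adjusted p of 1.0 and an exact permutation p of 0.2. It was measured by 1 probe, so no second probe bears on it.

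Among the pericyte genes, Rgs5 had the largest difference with all hearts included. Rgs5 is a regulator of G protein signalling and one of the most used pericyte markers. As the mean of both probes it read 11.85, 10.81 and 11.01 in WT hearts and 11.72, 11.21 and 11.83 in TG-PKR1 hearts. WT replicate 1 was level with the highest TG-PKR1 heart, while the other WT hearts were below all 3. The mean difference was 0.36 (exact permutation p = 0.4, n = 3 against 3), and both probes had a higher mean in TG-PKR1, by 0.43 (SE 0.34) for A_51_P354934 and 0.30 (SE 0.25) for A_52_P136782. The mean difference was 0.16 without WT replicate 2 and 0.67 without WT replicate 1. Without WT replicate 2, Pdgfrb (0.17) and Cspg4 (-0.22) had larger differences in size than Rgs5.

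With all hearts included, the pericyte receptors had smaller differences. Pdgfrb, the PDGF receptor β that pericytes need for recruitment, read 11.83, 11.75 and 11.49 in WT and 11.61, 11.90 and 11.99 in TG-PKR1 hearts, a difference of 0.14 (SE 0.17). Notch3, the Notch receptor of mural cells, read 10.35, 10.17 and 10.13 in WT and 10.23, 10.55 and 10.36 in TG-PKR1, a difference of 0.16 (SE 0.15). The groups interleaved for both receptors. Notch3 had the narrowest interval of the 16 probes, from -0.19 to 0.52. Cspg4, which encodes the surface proteoglycan NG2, was the pericyte gene with a lower mean in TG-PKR1 hearts, by -0.18 (SE 0.19) and -0.07 (SE 0.22) at its probes A_52_P278064 and A_51_P160824. Its gene level was 9.61, 9.04 and 9.04 in WT and 8.87, 9.19 and 9.25 in TG-PKR1, with WT replicate 1 the highest and TG-PKR1 replicate 1 the lowest, and the difference of -0.12 turned to 0.065 without WT replicate 1.

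**Figure D2:**
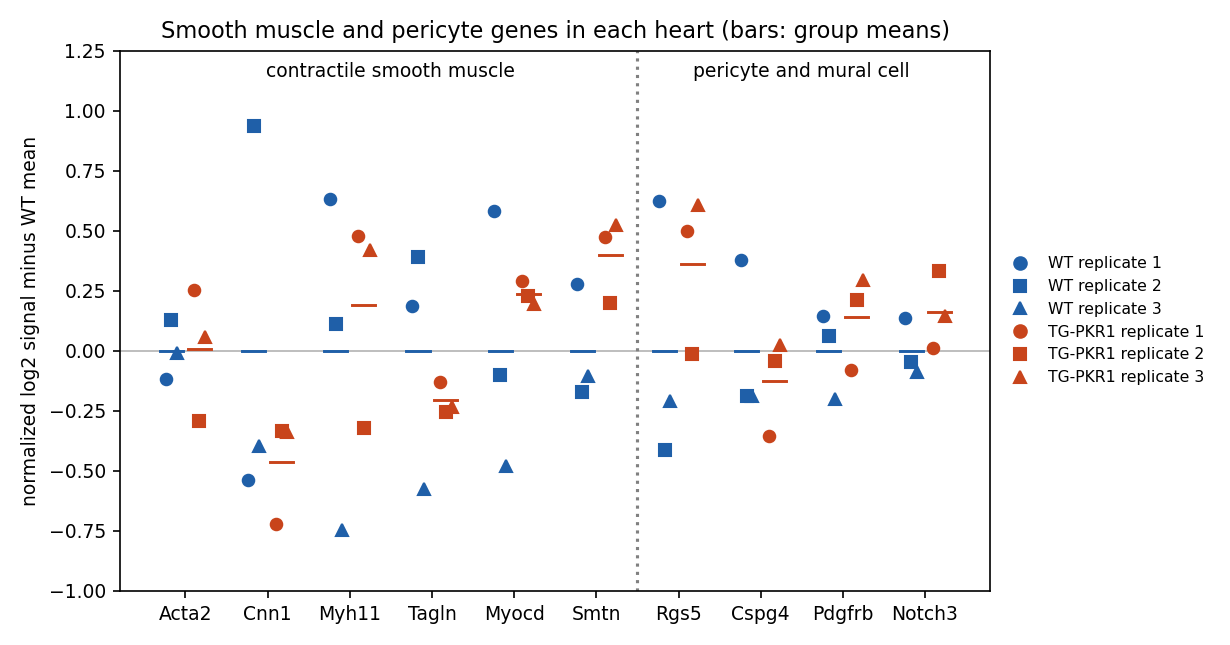
Normalized log2 signal of the 10 genes in each heart, as the mean of a gene's probes among the 20000, relative to its WT mean. Points are hearts and bars are group means (n = 3 each). The groups overlap for all 10 genes. The WT hearts spread farther than the TG-PKR1 hearts for Cnn1 (SD 0.81 against 0.22), Tagln (0.51 against 0.07) and Myocd (0.54 against 0.05). They also spread farther for Myh11 (0.70 against 0.45), Rgs5 (0.55 against 0.33), Cspg4 (0.33 against 0.20) and Smtn (0.24 against 0.18). The TG-PKR1 hearts spread farther for Acta2 (0.28 against 0.12), Notch3 (0.16 against 0.12) and Pdgfrb (0.20 against 0.18).

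**Figure D3:**
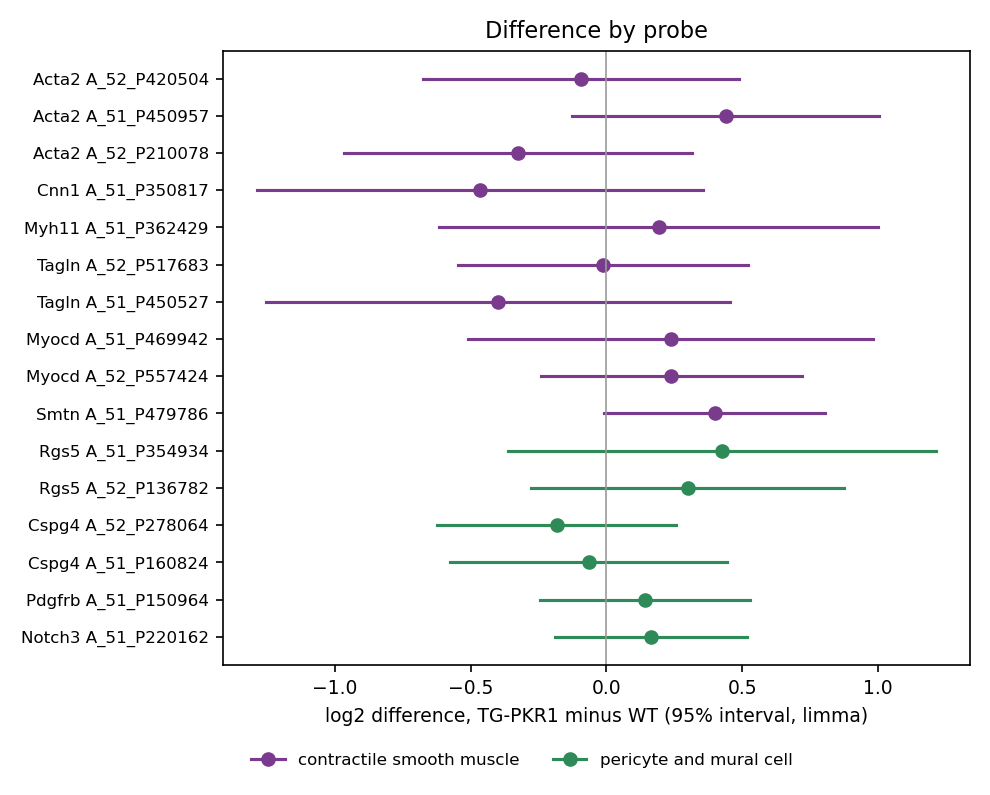
Difference between the TG-PKR1 and WT means (log2) at each of the 16 probes tested, with the 95% interval from limma. Purple marks contractile and green pericyte genes. Every interval includes 0, and that of Smtn begins at -0.01.

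Where a gene had more than 1 probe, agreement varied. The probes of Myocd, Rgs5 and Tagln each pointed 1 way, with differences 0.0033, 0.13 and 0.39 apart. The tested probes of Cspg4 were both lower, and a further probe, A_52_P539873, which was not well above background on any array, was outside the 20000. Acta2 had 5 probes in all, of which A_52_P644232 was well above background on 0 of 6 arrays and A_52_P239556 on 5 of 6, with a difference of -0.04 for the latter. RNA quality can separate probes along a transcript. Over 3337 pairs of probes of the same gene, the median 5′ minus 3′ signal, centred on each pair, was 0.03, -0.04 and -0.08 in the WT hearts and 0.07, -0.05 and 0.06 in the TG-PKR1 hearts. TG-PKR1 replicates 1 and 3, which had the higher values of this measure, were also the hearts in which Acta2 probe A_51_P450957 was high, and the part of RNA quality in the Acta2 disagreement was not tested.

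Contractile genes were then set against pericyte genes. The median difference was 0.10 over the 6 contractile genes, with 2 lower and 4 higher in TG-PKR1, and 0.15 over the 4 pericyte genes, with 1 lower and 3 higher. The contractile median turned to -0.09 without WT replicate 3 and to -0.03 without TG-PKR1 replicate 1, and was 0.23 without WT replicate 1. The pericyte median was 0.08 without WT replicate 3 and 0.25 without TG-PKR1 replicate 1, and turned to -0.11 within the high-saturation arrays and to -0.04 on the shared slide. Contractile minus pericyte, at -0.05, turned to 0.35 within the low-saturation arrays and to 0.29 on that slide. It also turned to 0.11 without TG-PKR1 replicate 2 and to 0.0060 without WT replicate 1. With the brightest probe of each gene it was 0.06, and with the saturation split as a block in the fit 0.03. Under the other alternatives it kept its sign. The median difference over all 20000 probes was 0.03. With each gene set against its own WT mean, the contractile median was 0.23, 0.12 and -0.44 in the WT hearts and 0.27, -0.27 and 0.13 in the TG-PKR1 hearts. The pericyte median was 0.26, -0.12 and -0.20 in WT and -0.03, 0.10 and 0.22 in TG-PKR1. Single hearts within a group were farther apart than the group means on both measures. Contractile minus pericyte was -0.03, 0.24 and -0.24 in WT hearts and 0.31, -0.37 and -0.09 in TG-PKR1 hearts, so that each group held a heart on either side of 0.

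Some hearts were low or high across many of the genes. WT replicate 3 was below the WT mean for 6 of 6 contractile and 4 of 4 pericyte genes, and it was the lowest of the 6 hearts for 3 contractile genes (Myh11, Tagln and Myocd) and 2 pericyte genes (Pdgfrb and Notch3). WT replicate 1 was the highest heart for Myh11 and Myocd and for Rgs5 and Cspg4. No TG-PKR1 heart had the lowest reading in more than 1 gene of either class.

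Between high-saturation and low-saturation arrays, the difference changed sign for 5 of the 10 genes. The split also parts WT replicate 1 from the other WT hearts. Within the high-saturation arrays (1 WT against 2 TG-PKR1 hearts) and within the low-saturation arrays (2 WT against 1 TG-PKR1 heart), the differences were -0.58 and 0.79 for Myh11, -0.37 and 0.58 for Myocd, and -0.33 and 0.81 for Rgs5. They were 0.20 and -0.99 for Cnn1 and 0.11 and -0.0093 for Pdgfrb. The sign held on both sides of the split for Smtn (0.08 and 0.61), Notch3 (0.10 and 0.08), Tagln (-0.43 and -0.04), Cspg4 (-0.39 and -0.17) and Acta2 (0.0025 and 0.20). These values rest on 3 hearts each and have no test of their own. On the slide that held WT replicate 2 and TG-PKR1 replicate 1, Rgs5 differed by 0.91, Smtn by 0.65 and Cnn1 by -1.66.

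The promoter of Acta2 is shown because the contractile programme acts through CArG boxes, and that of Rgs5 is set beside it as a pericyte gene. RefSeq promoter windows of GRCm38.p6, which run from 250 bases before to 50 bases after the gene start, were matched by symbol for 6 of the 10 genes (Acta2, Cnn1, Smtn, Rgs5, Cspg4 and Notch3). The CArG box was searched on both strands. The strict motif was in 0 of the 6 windows, and in 1.63% of 32851 windows of the same length. With up to 1 of the 6 central bases G or C, only the Acta2 window held matches, CCTTGTTTGG and CCCTATATGG, which begin 34 and 84 bases before the gene start. Of all windows, 9.98% held at least 1 such match and 0.822% held 2 or more. Capitals mark the matches. The sequences run 5′ to 3′ on the gene's strand, at chr19:34255324-34255623 (minus strand) for Acta2 and chr1:169655251-169655550 (plus strand) for Rgs5.
Acta2: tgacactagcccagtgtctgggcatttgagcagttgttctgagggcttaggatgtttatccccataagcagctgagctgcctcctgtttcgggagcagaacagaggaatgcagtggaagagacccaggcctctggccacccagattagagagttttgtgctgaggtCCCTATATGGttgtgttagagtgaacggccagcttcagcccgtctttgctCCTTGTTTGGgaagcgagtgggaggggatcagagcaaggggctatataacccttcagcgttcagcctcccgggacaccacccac
Rgs5: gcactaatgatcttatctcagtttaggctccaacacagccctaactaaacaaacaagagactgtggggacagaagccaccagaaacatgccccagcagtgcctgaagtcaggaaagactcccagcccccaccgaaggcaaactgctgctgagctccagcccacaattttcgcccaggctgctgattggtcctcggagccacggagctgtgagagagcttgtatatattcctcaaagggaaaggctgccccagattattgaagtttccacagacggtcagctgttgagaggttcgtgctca
A match is a string of letters and not a measured binding site.

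Further genes linked to mural cells were read from lists written by hand, and these too are not private to mural cells. Of 23 other smooth muscle genes, such as the myosin light chain Myl9 and its kinase Mylk, 22 were among the 20000 probes. Of these, 10 were lower and 12 higher in TG-PKR1 hearts, with a median of 0.04, and 0 of their 37 probes passed the adjusted threshold in either direction. The highest difference was 0.50 for Des. Tpm1 and Pln were bright, with WT means of 14.9 and 14.7. The part of cardiomyocyte RNA in the values of this list was not tested. At an unadjusted p under 0.05, 2 of these probes were lower and 0 higher, where the shares over all probes were 1.66% and 0.715%. The first was Aoc3, a surface amine oxidase of smooth muscle and of adipocytes. It read 9.61, 10.15 and 9.91 in WT and 8.71, 9.47 and 8.53 in TG-PKR1 hearts, all 3 below the WT range (difference -0.99, SE 0.26, unadjusted p = 0.0048, adjusted p = 0.85 by limma). In the same hearts 9 of 9 adipocyte genes measured had lower means in TG-PKR1, with a list median, relative to WT, of -1.69, -1.30 and -2.07 in TG-PKR1 hearts and -0.15 to 0.20 in WT hearts. The part of fat cells in the Aoc3 difference was not tested.

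The second was a probe of Itga8, the integrin α8 chain of smooth muscle and other mesenchymal cells. Probe A_51_P309920 read 8.89, 9.44 and 8.71 in WT and 8.44, 8.31 and 8.65 in TG-PKR1 hearts (difference -0.55, SE 0.21, unadjusted p = 0.030, adjusted p = 1.0 by limma). The groups lay apart by a narrow margin. The other Itga8 probe differed by -0.39 (SE 0.24) and its groups overlapped. Myl9, the regulatory light chain of smooth muscle myosin, had the next smallest p, with 13.03, 13.31 and 13.11 in WT and 12.96, 12.83 and 12.63 in TG-PKR1 (difference -0.34, SE 0.16, unadjusted p = 0.060, adjusted p = 1.0 by limma). For Myl9 too the groups lay apart by a narrow margin, with TG-PKR1 lower.

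Of 20 other pericyte genes, 18 were measured, 6 with lower and 12 with higher means in TG-PKR1 hearts and a median of 0.07. None of their 28 probes passed the adjusted threshold and 0 had an unadjusted p under 0.05 by limma. Abcc9, a sulfonylurea receptor subunit of an ATP-sensitive potassium channel, had the smallest p. Abcc9 was read in whole hearts, and the part of cardiomyocyte RNA in its values was not tested. Its 3 probes had higher means in TG-PKR1, by 0.41 (SE 0.19), 0.30 (SE 0.16) and 0.23 (SE 0.18). The gene mean was 9.58, 9.54 and 9.72 in WT and 10.10, 9.66 and 10.03 in TG-PKR1 hearts, and the groups overlapped through TG-PKR1 replicate 2, although at probe A_51_P328850 the TG-PKR1 hearts (11.44 to 11.65) lay above the WT hearts (11.06 to 11.36). Its partner in the channel, the pore subunit Kcnj8, differed by 0.15. The purinergic receptor P2ry14 differed by 0.24 (SE 0.17). The guanylate cyclase subunit Gucy1b3 had probes at 0.21, 0.20 and -0.09.

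Ligands and regulators that act on mural cells had a median near that of all probes. Of 24 genes, 22 were measured, 10 lower and 12 higher, with a median of 0.02, and 0 of 30 probes had an unadjusted p under 0.05 by limma. Among the SRF and TGF-β genes 4 were lower and 4 higher (median 0.0030). Tgfbr1, the type I TGF-β receptor, differed by 0.30 (SE 0.20), and the 2 probes of its signal carrier Smad3 by -0.31 (SE 0.19) and -0.04 (SE 0.22). Srf itself differed by 0.14. Among Notch ligands and targets 4 were lower and 3 higher (median -0.0061), with the endothelial ligand Dll4 at 0.22 (SE 0.16) and Jag1 at -0.11. Among the PDGF and angiopoietin ligands and receptors 2 were lower and 5 higher (median 0.09), from -0.18 for Angpt2, the angiopoietin released by endothelium, to 0.12, with Pdgfb at 0.11.

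**Figure D4:**
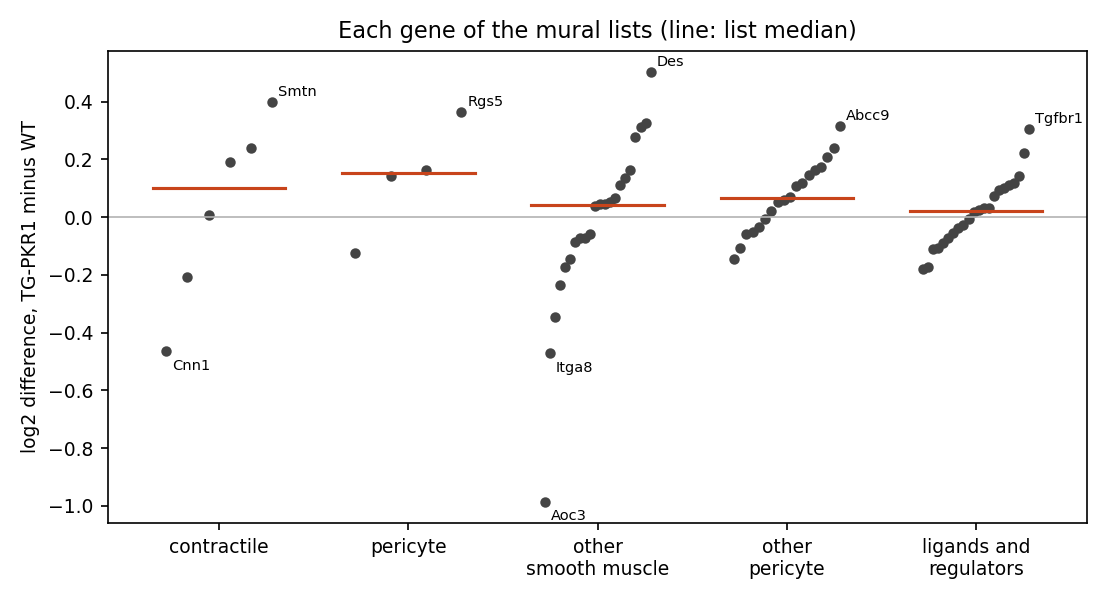
Difference between TG-PKR1 and WT means (log2) for each gene of the contractile, pericyte and further mural lists, sorted within a list, with the list median as a line. List medians lie between 0.02 and 0.15, and Aoc3 at -0.99 is the farthest from 0.

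Neighbouring cell types were read from their markers in the same hearts. The cardiomyocyte list had a median difference of 0.18, with higher means for 10 of 10 genes and 0 of its 24 probes past the adjusted threshold. Relative to WT, its median was 0.15, 0.03 and -0.27 in WT hearts and 0.39, -0.09 and 0.15 in TG-PKR1 hearts. WT replicate 3 and TG-PKR1 replicate 2 were thus the lowest of their groups for cardiomyocyte as for contractile genes. The part of cardiomyocyte RNA in the contractile values was not tested. The endothelial list (9 genes measured) had a median difference of 0.05 and the cardiac fibroblast list (10 genes) of -0.06, with 0 probes past the adjusted threshold in either.

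**Figure D5:**
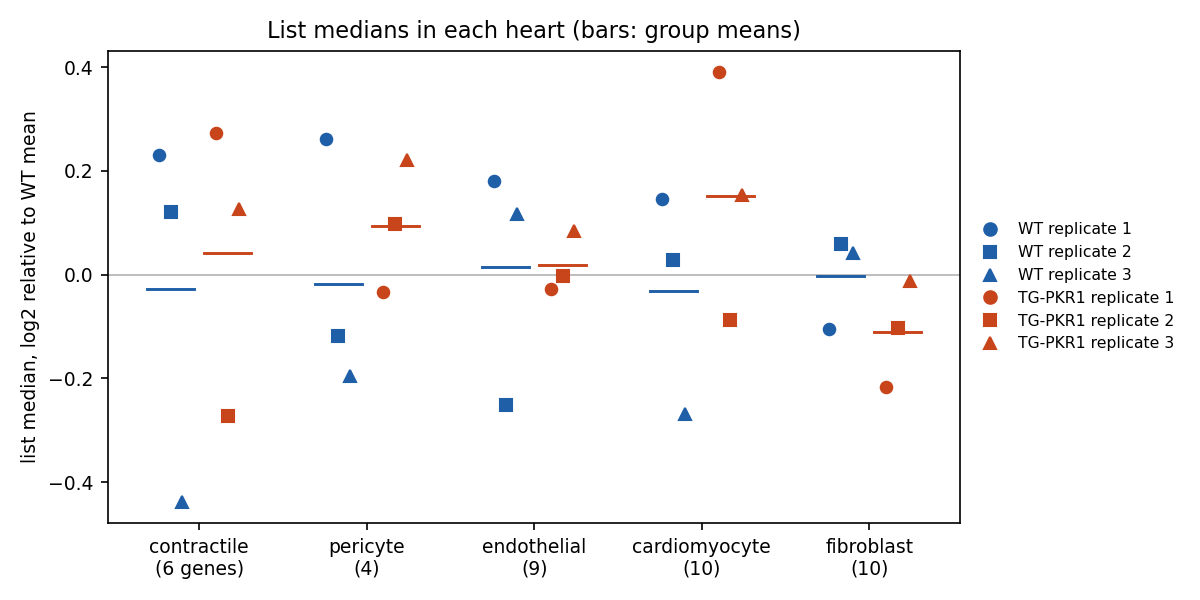
Median of each gene list in each heart, in log2 against each gene's own WT mean, for contractile, pericyte, endothelial, cardiomyocyte and cardiac fibroblast genes. Points are hearts and bars are group means (n = 3 each). WT replicate 3 is the lowest heart in the contractile (-0.44), pericyte (-0.20) and cardiomyocyte (-0.27) lists.

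Genes with a pattern over the 6 hearts like that of Acta2 or Rgs5 were found by the root mean square distance between log2 profiles, each centred on its own median. The nearest to Acta2 were Slc25a5 (distance 0.045), a mitochondrial ADP/ATP carrier, then Adamts8, Trp53inp1, Lyz2 and Clec4n. The nearest to Rgs5 were Borcs6 (0.060), Setd3, Oaz2, Aamp and Cmas. None of these 10 was in the mural lists above. Smtn was the member nearest to Rgs5, at a distance of 0.20, with 3.91% of the probes nearer. The member nearest to Acta2 was Pdgfrb, at 0.29, with 50.3% of the probes nearer, and the contractile genes Cnn1, Myh11, Tagln and Myocd were farther from Acta2 than 70.2% of the probes or more. Profiles were not scaled, so a gene with a wide range lies far from one with a narrow range. The range over the hearts was 0.55 for Acta2 and 0.50 for Pdgfrb. It was 1.66 for Cnn1, 1.38 for Myh11, 0.97 for Tagln and 1.06 for Myocd. Distance here thus does not separate shape from size of change.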

How the data were processed

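The authors deposited scanner values per spot, extracted with Agilent Feature Extraction 9.5.1.1 as fluorescence intensity with no normalization between arrays, and a table of log2 values normalized by LOWESS against a median profile. Probe positions in the deposited files are those of mm8, and exon or UTR annotation of that build was not used here. Here, log2 median intensity without control and outlier spots was set to the median profile of the 6 arrays by loess with a span of 0.3 and 4 iterations. The mean over a probe's spots was taken, and tests used the 20000 probes that ranked highest by median. TG-PKR1 hearts were tested against WT hearts in limma 3.58.1 in R 4.3.3 (lmFit and eBayes, no covariates), with Benjamini-Hochberg adjustment over all 20000 probes at 0.05. Single genes were compared by two-sided exact permutation tests. The number of arrays and signal over background limit precision.

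A gene's value is the mean of its probes among the 20000. All 10 genes were named; of each further list, the 3 genes with the smallest p were named, and others (Kcnj8, Srf, Jag1, Pdgfb, Angpt2) were chosen after their values were seen. The genes and lists were chosen with earlier results of these data known. Symbols came from RefSeq GRCm38.p6, by accession for 15334 probes and by name for 2189, and 2477 kept the name in the files. Per the methods, the 6 arrays hold RNA of 6 animals kept on a C57BL6/J background, and the titles tie only WT replicate 2 and TG-PKR1 replicate 1, by the number of the slide they share. The methods of the study name SAM, for which limma was used. Alternatives covered background correction, normalization, filters, the authors' table, saturation value in the headers, slide and leaving out each heart.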

Additional observations from a re-analysis of the deposited data

How the results depend on the processing

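No probe of the 10 genes was called in either direction under any of the 17 alternatives that gave a test, while calls over all probes ran from 0 to 33. Where calls over all probes were 0, the outcome for the 10 genes was fixed. This held, among others, for the table of the authors, the saturation split as a block and all non-control probes. Of 200 recomputed gene differences, 18 changed sign, and Smtn, Notch3 and Tagln kept theirs throughout, at 0.08 to 0.65, 0.06 to 0.27 and -0.52 to -0.01. Acta2, at 0.01, turned to -0.050 with Agilent's processed signal, centred at the 75th percentile, -0.017 with normexp and quantile normalization together, -0.037 with quantile normalization alone, -0.0055 over the probes that 3 or more arrays measured well above background and -0.017 in the table of the authors. Leaving out each heart in turn gave -0.12 to 0.16 for Acta2, -0.73 to 0.0027 for Cnn1, -0.22 to 0.065 for Cspg4, -0.18 to 0.51 for Myh11, -0.0022 to 0.53 for Myocd, 0.16 to 0.67 for Rgs5 and 0.04 to 0.25 for Pdgfrb. It gave -0.09 to 0.23 for the contractile median, 0.08 to 0.25 for the pericyte median and -0.28 to 0.11 for contractile minus pericyte. Within the high-saturation arrays the differences were 0.20 for Cnn1, -0.58 for Myh11, -0.37 for Myocd, -0.33 for Rgs5, -0.18 for the contractile median and -0.11 for the pericyte median. Pdgfrb was -0.0093 within the low-saturation arrays and -0.14 on the shared slide, and contractile minus pericyte was 0.35 and 0.29 there. The causes were not tested. No paired analysis was possible because only WT replicate 2 and TG-PKR1 replicate 1 share a number in their titles, that of their slide. The low-saturation arrays had the lower signal over background, 2.08 to 3.97 at the 75th percentile.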

Other observations

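The epicardium of the heart, and tissue that can come along when a heart is dissected, were read from their markers. Of 8 epicardial genes, 7 were measured, 6 with lower and 1 with a higher mean in TG-PKR1 hearts, and the median difference was -0.14. None of their 7 probes passed the adjusted threshold, and 0 had an unadjusted p under 0.05 by limma. Of 5 lung epithelium genes 0, and of 7 thymus and T cell genes 1, were among the 20000 probes.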
